A study of Rattus norvegicus with 20 samples.

Results

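The genes described here were higher in cultured epithelial cells of rat bladder, trachea, vagina and thymus than in whisker follicle cells, and remained so after the cells had been transplanted into skin and recovered. They were chosen by their measured values. The level of a gene in a group was the mean over its 2 samples of log2(CPM + 1), where CPM is the share of the reads counted on genes, scaled to a total of 1000000, and a member had a level at least 1 above that of whisker cells before transplantation in all 4 tissues, both before and after transplantation. Of 32494 genes in the files 92 passed, and 5 of these (Krt4, Krt8, Foxa1, Wnt4 and Slc39a11) were left out because their families are not part of the list, which left 87 members. A gene symbol was at hand for 77 of them, a clone or locus name for 7, and an identifier alone for 3.

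RNA was sequenced from 20 samples in 10 groups of 2. All cells came from Sprague-Dawley rats that express EGFP, a green fluorescent protein, in every tissue, and were grown on a mouse feeder layer and sorted on EGFP. The groups before transplantation were cells of the bladder dome (PN201, where PN is the postnatal day), trachea (PN200), vagina (PN200), thymus (PN137) and whisker (PN57). The recovered groups were the same cells cultured again from skin grafts made with newborn mouse skin, which is the microenvironment in which hair follicles form. Bladder, trachea and vagina samples are labelled bulk, whisker samples are clone 7 before and its subclone 14 after, and thymus samples are labelled both bulk and clone 9 before and bulk 907 after. Tissue, donor age and clonality cannot be told apart in any comparison with whisker, and since nothing says that the 2 samples of a group are separate cultures or animals, p values measure only the spread between these samples.

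Bladder, trachea and vagina are lined by transitional, pseudostratified and stratified epithelium whose moist surface faces a lumen, whereas the epithelium of the thymus forms a network that supports developing T cells and lines no lumen. Mucosal linings are known for making prostaglandins and mucosal glycoproteins, for conjugating foreign compounds with glutathione, and for a standing set of interferon-inducible and NF-kB-dependent defence genes. Ligands of the epidermal growth factor family, which drive growth of basal cells, are made by skin and mucosa alike.

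Between 20723083 and 29824855 reads fell on genes in each sample (median 24566208), and 3 counts correspond to 0.101 to 0.145 CPM. In every group its 2 samples were further apart than counting noise allows, most in thymus and in bladder before transplantation, where the chi-square per gene was 43.2 and 34.1 against 2.49 to 9.96 in the other groups. Of 11 genes listed for basal keratinocytes 3 had a paired name (Cdh1, Epcam and Dsg3). All 3 were found in every sample, with summed levels of 1895 to 3497 CPM. Most of the sum was Cdh1 in bladder before transplantation (2411 and 2172 CPM) and Dsg3 in recovered vaginal cells (2107 and 2143 CPM). The sum thus does not show that the cells of a sample were basal keratinocytes. Dsg3, a desmosomal cadherin, rose in bladder from 142 and 163 to 1533 and 1479.6 CPM beside the changes described there. The 4 paired fibroblast markers of 11 (Col1a1, Col3a1, Col6a3 and Dcn) summed to 207 to 305 CPM in bladder and trachea before transplantation and to 22.3 to 48.3 CPM in all other samples, and all 4 fell after transplantation in both tissues. The paired adipocyte markers, 2 of 8, summed to 20.8 to 108 CPM in bladder, 44.9 and 46.7 CPM in vagina before transplantation and at most 6.56 CPM elsewhere, with Adipoq at 0 in all 4 whisker samples. Adipoq fell in vagina from 44.5 and 46.03 to 0.763 and 1.31 CPM. Cd68, the 1 paired leukocyte marker of 13, fell in vagina from 60.2 and 62.7 to 15.9 and 14.2 CPM and rose in bladder from 14.6 and 13.7 to 51.3 and 49.2 CPM and in trachea from 13.03 and 11.8 to 63.6 and 56.9 CPM, while it was at 27.3 to 30.3 CPM in thymus and at most 12.3 CPM in whisker cells. Esam, the 1 paired endothelial marker of 7, lay at or below 1.88 CPM, and none of the 7 melanocyte markers could be paired. In such bulk samples fewer cells of a type and less RNA per cell cannot be told apart, and the part of these markers in the results below was not tested.

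Before transplantation 320 genes met the margin over whisker cells in all 4 tissues, with the same families left out, and after transplantation 131 did. The 87 genes common to both are 27.2% of the first list and 66.4% of the second. Of the 320 genes, 267 (83.4%) still met the margin in recovered bladder cells, 263 (82.2%) in recovered tracheal cells and 243 (75.9%) in recovered thymic cells, but only 136 (42.5%) in recovered vaginal cells. Accordingly the smallest of a member's 8 margins was found in recovered vaginal cells for 36 of the 87 members, against 2 to 13 in any other group, and no member was highest there. Bladder before transplantation was the highest group for 25 members. Every one of the 16 samples of the 4 tissues was above both whisker samples before transplantation for all 87 members, which the margin itself nearly requires, and above all 4 whisker samples for 78. These counts describe the values that chose the members and were not tested.

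The median of the smallest margin was 1.35 on the log2 scale, so that most members lay close to the threshold, with 11 members within 0.05 inside it and 17 genes within 0.05 outside it. Just inside were Ankrd6 (1.01), Mtcl1 (1.01) and Il18rap (1.00), and just outside Ryr1 (0.999), Padi1 (0.997) and Adamts1 (0.996). At the other end, among members with a gene symbol, the smallest margin was 5.12 for Ptgs1, 4.63 for Gstt3, 3.32 for Sp140, 3.20 for Tp53i11 and 3.07 for Has3. The plot of levels by sample shows 51 members named by rule.

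**Figure D1:**
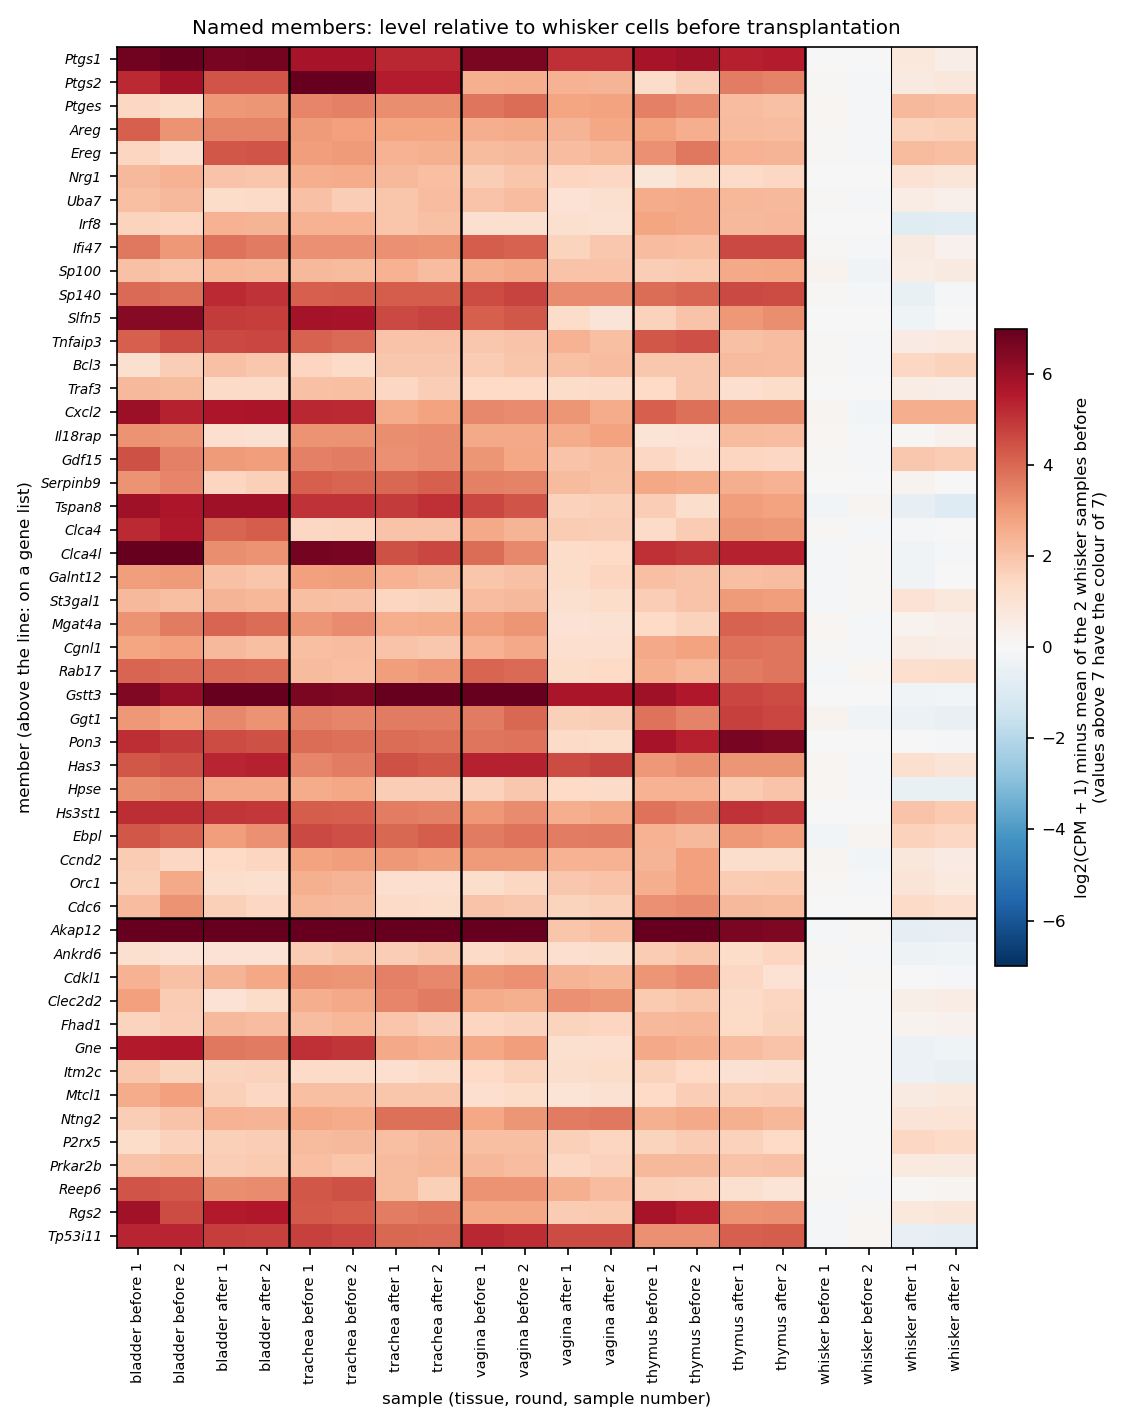
Level of 51 named members (rows) in the 20 samples (columns), as log2(CPM + 1) minus the mean of the 2 whisker samples before transplantation, red where higher and blue where lower. Rows above the horizontal line are the 37 members on a functional gene list. Ptgs1 and Gstt3 are dark in all 16 samples of the 4 tissues, whereas Akap12, Slfn5 and Clca4l are pale in the recovered vaginal cells.

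The first question was whether the members differed between cells recovered from the skin graft and the cells before it. Recovered cells had also spent months in the graft and been cultured again, so graft, time and culture cannot be told apart. All 87 members were among the 13302 genes tested with limma voom, and a call needed an adjusted p value under 0.05 and a change of at least 2-fold. Since a member had to stay above the whisker level in both rounds, a gene that fell to that level could not be among them. In bladder 6 members rose (10.1% of all tested genes did) and 17 fell (11.0% of all). In trachea 3 rose (4.39% of all) and 13 fell (8.04%). No member rose in vagina (4.25% of all genes did), while 32 of 87 fell (7.53% of all). In thymus 21 rose (8.49% of all) and 12 fell (6.89%).

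The share of members that fell, 36.8% in vagina, 19.5% in bladder, 14.9% in trachea and 13.8% in thymus, was above that of all genes tested in each tissue. The share that rose was above it in thymus (24.1%) and below it in bladder (6.9%), trachea (3.45%) and vagina. These differences of shares were not tested. The samples of bladder and of thymus before transplantation differed most from each other. Without replicate 1 or 2 of bladder before transplantation 8 or 6 members rose and 14 or 17 fell there, and without replicate 1 or 2 of thymus before transplantation 20 or 19 rose and 15 or 12 fell. The median change of the members was -0.67 on the log2 scale in vagina, against -0.14 in bladder, -0.12 in trachea and -0.11 in thymus, and that of all genes tested lay between -0.01 and 0.02. The count of 0 rises in vagina came from limma voom, edgeR's quasi-likelihood test and the DESeq2 Wald test alike, and with each of them 6 members were higher and 59 lower at an unadjusted p under 0.05. Without replicate 2 of vagina before transplantation 1 member, Ntng2, rose (1.01 on the log2 scale). In all, 27 members were called in no tissue, 32 fell in at least 1 tissue and rose in none, 7 rose in at least 1 and fell in none, and 21 did both. This split was not computed for all genes tested either, so it is no trait shown to be particular to the members.

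**Figure D2:**
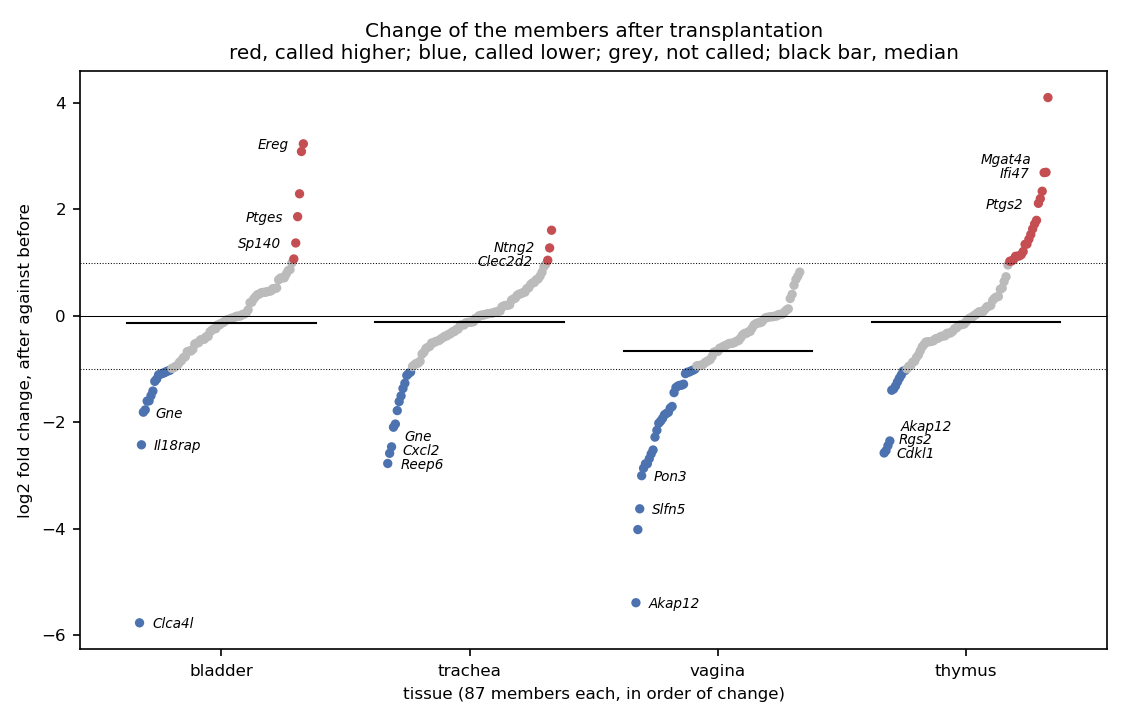
Log2 fold change after against before transplantation (vertical axis) of the 87 members in each of the 4 tissues (horizontal axis), each column of points in order of change, with calls coloured and the median as a black bar. In vagina 32 points are called lower and none higher, and in thymus 21 are called higher and 12 lower.

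The second question was whether recovered cells of the 4 tissues also stood above recovered whisker cells. The choice of members used the same recovered samples of the 4 tissues, which were high by that choice, so the counts and differences against recovered whisker cells are a description and no independent test, and no p value is given for them. They apply the same criterion as above, and the 4 comparisons share the same 2 recovered whisker samples. In bladder 74 of 87 members were higher (13.5% of all tested genes were) and 0 lower (6.59% of all). In trachea 72 were higher (9.83% of all) and 0 lower (9.22%). Vaginal cells had 53 higher (5.68% of all) and 0 lower (6.20%), and thymic cells 67 higher (10.4% of all) and 0 lower (6.21%). With limma voom, edgeR and DESeq2 alike no member was called lower in any of the 4 tissues. This carries little weight, since the choice of members made these recovered samples high. The median difference of the members was 2.22 on the log2 scale in trachea, 2.09 in bladder, 2.01 in thymus and 1.62 in vagina, and that of all genes tested between -0.01 and 0.01.

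By member, 50 of the 87 were higher than recovered whisker cells in all 4 tissues, 13 in 3, 10 in 2, 7 in 1 and 7 in none. The same split was not computed for all genes tested, so it does not show what is particular to the members. The 7 without a call in any tissue were Ptges, Bcl3, Tfrc, P2rx5, Phlda1 and 2 genes known only by identifier. As a description with no test, the level in recovered whisker cells was above that in whisker cells before transplantation for 59 members and by at least 1 for 16, while it was at least 1 below for none. The median difference was 0.46, with a range from -0.86 to 2.55. Against recovered whisker cells, the smallest margin over the 4 tissues in both rounds was at least 1 for 43 members and below 0 for 6.

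**Figure D3:**
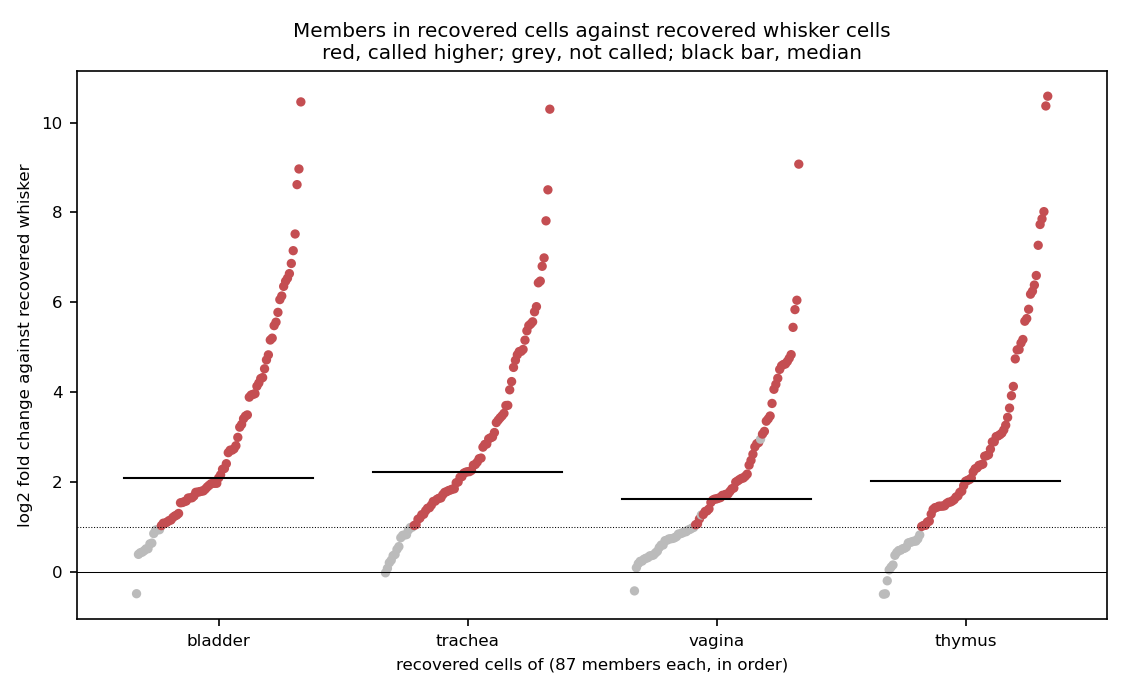
Log2 fold change of recovered cells of each tissue against recovered whisker cells (vertical axis) for the 87 members, in order within each tissue (horizontal axis), with members called higher in red and the median as a black bar. Between 53 members (vagina) and 74 members (bladder) are red, and none is called lower.

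**Figure D4:**
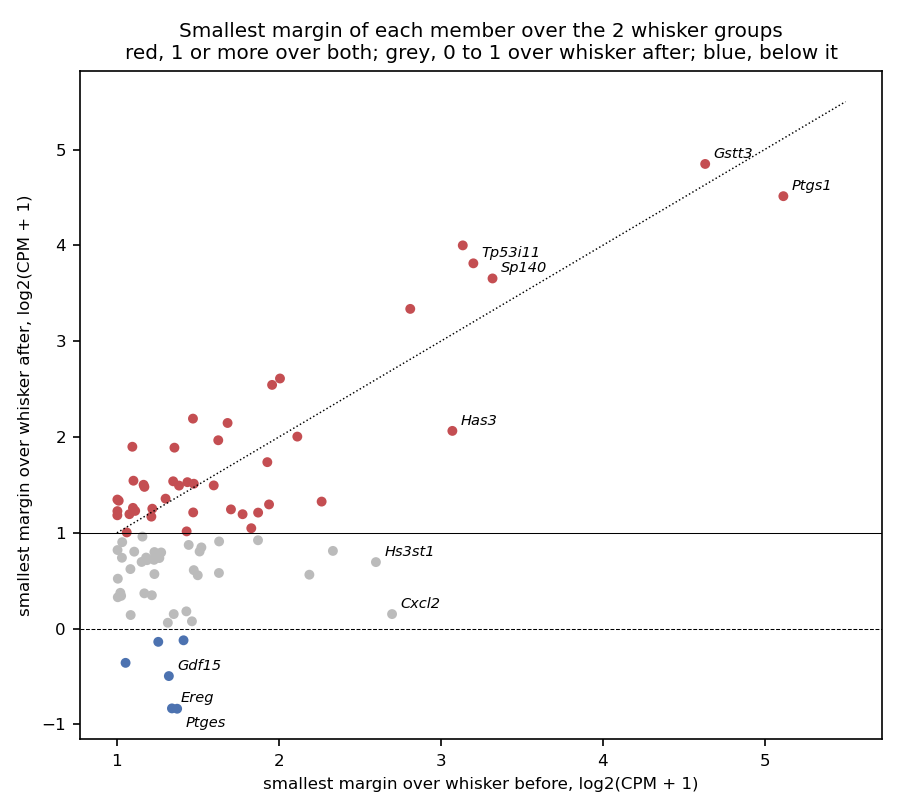
Smallest margin of each member over whisker cells before transplantation (horizontal axis) and over recovered whisker cells (vertical axis), both as differences of log2(CPM + 1), with the dotted line where both are equal. Ptgs1 and Gstt3 lie at the upper right, 43 members are at or above 1 on both axes, and Ptges, Ereg and Gdf15 are among the 6 below 0 on the vertical axis.

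Although the members share their position above whisker cells, they were not uniform. Among the 4 tissues 58 members differed before transplantation (40.3% of all tested genes did) and 59 after it (35.6% of all), by an F test in limma with an adjusted p value under 0.05 and a range of at least 2-fold. Their change after transplantation differed among the tissues for 79 members by the interaction test, against 74.1% of all genes tested. For thymus, these tests cannot tell tissue apart from donor age, clone or bulk label and freezing. The samples tested here also chose the members, through a floor over whisker cells in every group. The shares of all genes are therefore set beside these counts as a description, and the differences of shares were not tested. The median range of a member's level over the 8 groups was 1.93 on the log2 scale. Among members with a gene symbol and at least 5 CPM in every sample of 1 group it was widest in Clca4l (7.65), Akap12 (6.99), Ptgs2 (5.65), Slfn5 (5.29) and Pon3 (5.29), and narrowest in Itm2c (0.65), Prkar2b (0.76), Bcl3 (0.76), P2rx5 (0.77) and Fhad1 (0.80).

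**Figure D5:**
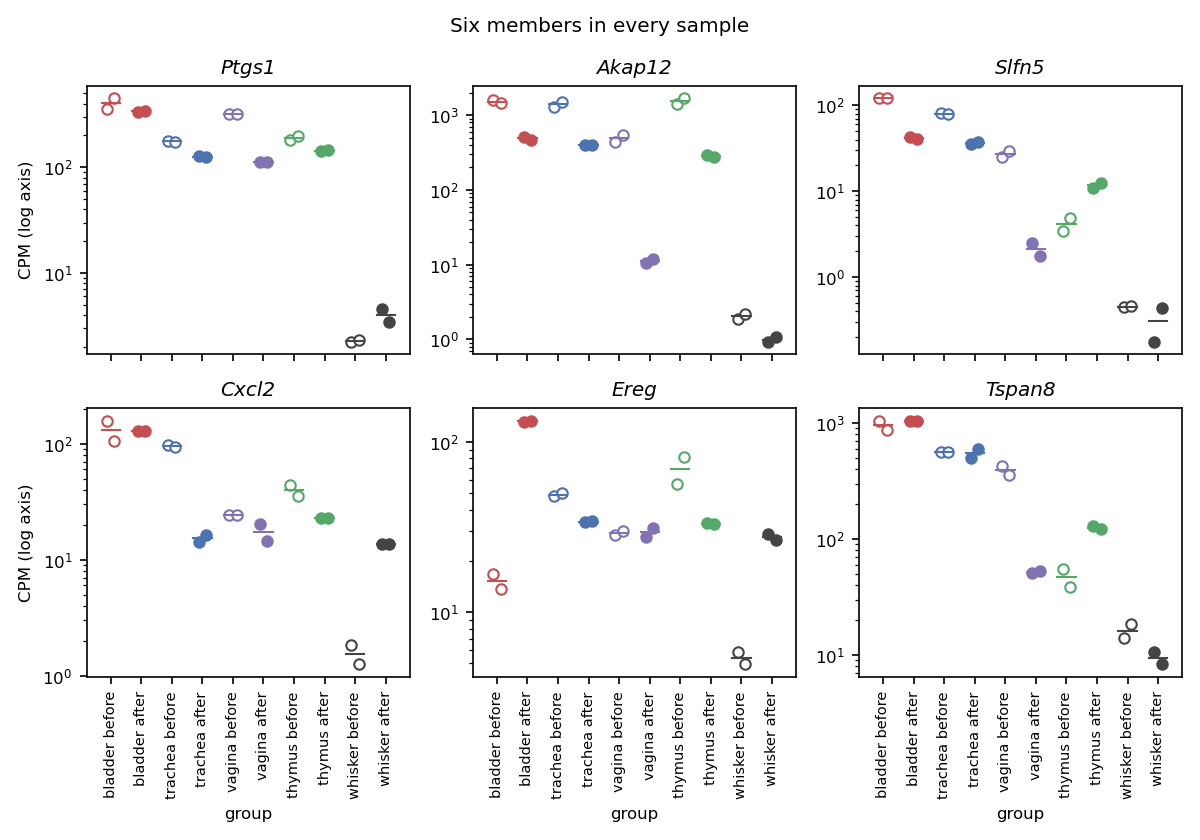
CPM on a log axis (vertical) of Ptgs1, Akap12, Slfn5, Cxcl2, Ereg and Tspan8 in every sample of the 10 groups (horizontal), with open points before and filled points after transplantation and a line at the mean of the 2 samples. Ptgs1 is at 112 CPM or more in all 16 samples of the 4 tissues, Akap12 and Slfn5 are lowest of these in recovered vaginal cells, and Cxcl2 and Ereg are higher in recovered whisker cells than in whisker cells before.

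Prostaglandin synthesis contributed 3 members. Ptgs1 encodes cyclooxygenase-1, the constitutive enzyme that makes the prostaglandin precursor from arachidonic acid, Ptgs2 its inducible counterpart, and Ptges a synthase that turns the precursor into prostaglandin E2. Ptgs1 was measured at 354 and 450.1 CPM in the 2 bladder samples before transplantation and at 331 and 344 CPM after it. In trachea it was at 177 and 175 CPM before and 127 and 125 CPM after, in vagina at 318 and 318 and then 112 and 112, and in thymus at 179 and 198 and then 142 and 146. Whisker cells had 2.22 and 2.31 CPM before and 4.53 and 3.44 CPM after, far from every sample of the 4 tissues.

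Ptgs1 fell in vagina, by a log2 change of -1.44 (SE 0.08, adjusted p = 1.6e-09), and was not called in the other tissues, and against recovered whisker cells it was higher by 6.47 (SE 0.16) in bladder, 5.09 in thymus, 4.90 in trachea and 4.83 in vagina. Ptgs2 followed another order, with 625 and 608 CPM in trachea before transplantation but 9.45 and 13.5 CPM in thymus. After transplantation trachea was at 195 and 196 CPM and thymus at 50.5 and 46.6 CPM, a fall of -1.61 (SE 0.13, adjusted p = 7.6e-08) and a rise of 2.11 (SE 0.18, adjusted p = 1.1e-07) on the log2 scale. Ptgs2 also fell in bladder, from 162 and 248 to 89.8 and 91.9 CPM, by -1.02 on the log2 scale, or -0.74 without replicate 2 before transplantation. Its change differed among the tissues with a range of 3.72 (adjusted p = 2.6e-09).

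Ptges rose in bladder from 23.4 and 20.8 to 72.97 and 75.2 CPM (1.86 on the log2 scale) and fell in vagina and thymus (-1.002 and -1.32), the former short of 2-fold without replicate 2 of vagina before transplantation (-0.90). In whisker cells it was at 8.61 and 7.24 CPM before and 42.1 and 38.2 CPM after transplantation, so that recovered thymic cells, at 38.2 and 36.6 CPM, lay just below recovered whisker cells. Ptgs1 and Ptgs2 were higher than recovered whisker cells in all 4 tissues, and Ptges passed the 2-fold criterion in none. Without replicate 1 of recovered whisker cells it passed in bladder (1.01) and trachea (1.05). Of 22 genes listed for prostaglandin synthesis, breakdown and reception, 5 had a paired name. After transplantation 1 of these rose and 1 fell in bladder, 1 fell in trachea, 2 fell in vagina, and 1 rose and 2 fell in thymus. The paired names come from tables of genes that the study called different, so such counts, here and for the lists below, are limited to these. They are no result about a pathway. Of all tested genes 10.1% rose and 11.0% fell in bladder, and 4.39% and 8.04% in trachea. In vagina 4.25% rose and 7.53% fell, and in thymus 8.49% and 6.89%.

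Among ligands of the epidermal growth factor and neuregulin family, Areg (amphiregulin), Ereg (epiregulin) and Nrg1 (neuregulin 1) were members. Ereg was at 16.8 and 13.7 CPM in bladder before transplantation and at 131 and 133 CPM after it, the largest rise of a member with a gene symbol in bladder (3.23 (SE 0.14, adjusted p = 1.4e-11) on the log2 scale). In thymus it fell from 56.8 and 81.1 to 33.3 and 32.7 CPM (-1.03, and -0.80 without replicate 2 before transplantation). Trachea had 47.8 and 50.1 CPM before and 33.7 and 34.4 CPM after, and vagina 28.5 and 29.98 and then 27.7 and 31.1. Whisker cells went from 5.86 and 4.94 to 28.9 and 26.6 CPM, which overlaps with recovered vaginal cells. Recovered bladder cells alone were called higher in Ereg than recovered whisker cells (2.30 (SE 0.12)), against differences of 0.20 in trachea, 0.09 in vagina and 0.15 in thymus.

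Areg behaved alike in whisker cells, with 18.2 and 16.2 CPM before and 54.3 and 55.8 CPM after, and lay between 83.1 and 80.6 CPM in recovered thymic cells and 326 and 162 CPM in bladder before transplantation. It was called in no tissue after transplantation, and its changes did not differ among the tissues at the threshold (0.52 (adjusted p = 0.40)). Nrg1 was at 208 and 216 CPM in trachea before transplantation and at 63.7 and 87.5 CPM in thymus, and was not called in any tissue either. Both were higher than in recovered whisker cells in bladder (Areg 1.92, Nrg1 1.10) and trachea (1.05 and 1.17), and below the 2-fold criterion in vagina and thymus. Nrg1 in bladder was at the criterion without replicate 2 of recovered whisker cells (1.000), and Areg in vagina above it without replicate 1 of recovered vaginal cells (1.07). Of 18 listed ligands, receptors and shedding enzymes, 9 were paired, of which 2 rose and 1 fell in bladder, 1 rose and 1 fell in trachea, 1 fell in vagina, and 1 rose and 2 fell in thymus.

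Interferon-inducible genes were represented by Sp140 and Sp100 (nuclear body proteins), Irf8 (an interferon regulatory transcription factor), Ifi47 (an interferon-induced GTPase), Slfn5 (a Schlafen family member) and Uba7 (the activating enzyme for the ubiquitin-like protein Isg15). All 6 were higher than recovered whisker cells in bladder, trachea and thymus, as were 85.1%, 82.8% and 77% of all members, and 5 of them in vagina, as were 60.9% of all members, the exception being Uba7 (0.78 (SE 0.19)), which was also short of the criterion in bladder without replicate 2 of recovered whisker cells (0.95). Irf8 was low in whisker cells, at 14.7 and 14.6 CPM before and 7.84 and 8.10 CPM after transplantation, and lay between 33.1 and 31.8 CPM in recovered vaginal cells and 104 and 97.7 CPM in thymus before transplantation.

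Sp140 was at 37.6 and 33.7 CPM in bladder before and 89.95 and 80.1 CPM after transplantation, a rise of 1.37 (SE 0.09, adjusted p = 1.9e-09). In vagina it fell from 56.97 and 63.3 to 23.4 and 23.2 CPM (-1.30), and trachea kept to 43.5 and 45.6 CPM before and 44.4 and 45.8 CPM after. Whisker cells had at most 1.54 CPM in any of the 4 samples. Sp100 moved less, between 9.65 and 10.8 CPM in thymus before and 19.3 and 20.004 CPM in thymus after transplantation, and was called in no tissue, but in thymus without replicate 2 before transplantation (1.01). Sp100 and Sp140 are related in sequence, and reads that match both would have been left uncounted.

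The widest differences in this group were those of Slfn5 and Ifi47. Slfn5 was at 120.5 and 121 CPM in bladder, 3.47 and 4.83 in thymus, 80.5 and 78.5 in trachea and 24.9 and 29.1 in vagina before transplantation. After transplantation the values were 42.6 and 40.96 CPM in bladder, 10.8 and 12.6 in thymus, 35.4 and 37.2 in trachea and 2.53 and 1.74 in vagina, against at most 0.461 CPM in whisker cells. Bladder, trachea and vagina thus had less Slfn5 after transplantation and thymus more, with no overlap between the rounds in any tissue.

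The fall of Slfn5 was -3.63 (SE 0.20, adjusted p = 1.3e-09) in vagina and the rise in thymus 1.53 (SE 0.18, adjusted p = 3.4e-06) on the log2 scale, and the range of its changes among the tissues was 5.15 (adjusted p = 8.2e-11). Ifi47 fell in vagina from 29.3 and 26.9 to 3.58 and 4.76 CPM and rose in thymus from 6.06 and 5.89 to 38.3 and 38.4 CPM, changes of -2.69 and 2.69. In trachea it was at 13.7 and 13.3 CPM before and 13.7 and 13.2 CPM after, that is, within the spread of the samples. Of the 45 interferon-inducible genes listed, 15 were paired, of which 2 rose and 4 fell in bladder, 5 fell in trachea, 6 fell in vagina, and 2 rose and 4 fell in thymus. Falls were called for 8.04% of all tested genes in trachea and 7.53% in vagina, but the paired genes were ones the study had called different.

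Another 7 members belong to NF-kB signalling and inflammation. Cxcl2 is a chemokine for neutrophils, Tnfaip3 encodes the ubiquitin-editing enzyme A20 that restrains NF-kB, Bcl3 is a nuclear cofactor of NF-kB, and Traf3 an adaptor that restrains the alternative NF-kB pathway. Il18rap is a subunit of the interleukin-18 receptor, Gdf15 a stress-induced cytokine, and Serpinb9 an inhibitor of granzyme B. The stretch of 250 bases before the gene start was at hand for 59 of the 77 members with a symbol, from RefSeq (assembly GRCr8, not the build of the counts), and was searched on both strands for the NF-kB consensus. It was found in 7 of these members (11.9%) and in 3.54% of all 33469 promoters, and 4 of the 7 are on the NF-kB list. These matches are a description of the letters and say nothing of binding. The windows of these 4 members follow from 5′ to 3′ in the direction of the gene, with the match in capitals. The Cxcl2 window holds an overlapping match 1 base upstream, and that of Tnfaip3 another further upstream.
Cxcl2 (chr14:17467294-17467353, minus strand): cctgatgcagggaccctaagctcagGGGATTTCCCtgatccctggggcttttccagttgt
Tnfaip3 (chr1:15544000-15544059, minus strand): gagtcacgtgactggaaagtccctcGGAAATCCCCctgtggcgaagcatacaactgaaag
Bcl3 (chr1:88613559-88613618, minus strand): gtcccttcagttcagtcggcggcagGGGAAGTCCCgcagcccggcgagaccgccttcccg
Traf3 (chr6:136027014-136027048, plus strand): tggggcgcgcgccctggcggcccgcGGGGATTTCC
The other 3 members with the consensus were Tp53i11, Slfn5 and Lingo3. The interferon-stimulated response element core, GAAANNGAAA, was found in Ggt1 and Serpinb9 (3.39% of members, against 3.41% of all promoters).

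Of these 4 genes, Cxcl2 and Tnfaip3 varied most. Cxcl2 was at 158 and 106 CPM in bladder before and 128 and 129 CPM after transplantation. In trachea it went from 97.8 and 93.6 to 14.3 and 16.5 CPM, a fall of -2.58 (SE 0.19, adjusted p = 3.9e-08) on the log2 scale, and it was not called in vagina (24.5 and 24.3, then 20.3 and 14.5) or thymus (44.3 and 35.6, then 22.9 and 22.9). Whisker cells were at 1.82 and 1.25 CPM before and 13.7 and 13.7 CPM after, the largest such rise of level among members with a symbol (2.55). Recovered bladder cells were thus higher than recovered whisker cells (3.28 (SE 0.20)), whereas recovered tracheal cells differed by 0.07 (SE 0.23). The fibroblast markers, too, were high in trachea before transplantation and low after it, and they also fell in bladder, where Cxcl2 was not called. Their part in the change of Cxcl2 was not tested.

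Tnfaip3 fell in trachea from 112 and 98.6 to 24.8 and 24.9 CPM and in thymus from 131 and 146 to 26.1 and 27.6 CPM (-2.04 and -2.35), while in bladder it was at 117 and 151 CPM and then 158 and 165 CPM. It was higher than recovered whisker cells (8.63 and 9.45 CPM) in all 4 tissues. Bcl3, among the most even members, lay between 33.7 and 72.5 CPM over the 16 samples of the 4 tissues. Recovered whisker cells reached 41.8 and 48.4 CPM, up from 15.8 and 14.02 CPM, and Bcl3 passed the 2-fold criterion against them in no tissue (differences of 0.25 to 0.59). Traf3 was not called after transplantation in any tissue, and against recovered whisker cells it was called in trachea (1.03 (SE 0.12), or 0.92 without replicate 2 of recovered tracheal cells) and lay at 0.66 to 0.93 in the others.

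Il18rap fell in bladder from 9.60 and 9.43 to 1.73 and 1.52 CPM (-2.43 (SE 0.21, adjusted p = 6.1e-08)) and rose in thymus from 1.37 and 1.45 to 4.51 and 4.29 CPM (1.63 (SE 0.23, adjusted p = 3.0e-05)), with the trachea and vagina samples between 6.23 and 10.9 CPM in both rounds. Serpinb9 fell in bladder, from 85.7 and 103 to 26.95 and 30.1 CPM, and in vagina, from 111 and 107 to 43.7 and 38.8 CPM. Gdf15 was called in no tissue, although bladder went from 47.6 and 24.4 to 16.05 and 15.9 CPM (-0.99 (SE 0.23, adjusted p = 0.0014)), just short of the 2-fold criterion (called without replicate 2 before transplantation, -1.48), and recovered whisker cells (7.09 and 6.40 CPM) lay above recovered thymic cells (5.30 and 4.98 CPM). Of 31 listed genes 18 were paired, of which 2 rose and 6 fell in bladder, 1 rose and 8 fell in trachea, 4 fell in vagina, and 5 rose and 5 fell in thymus. Falls were called for 11.0% of all tested genes in bladder and 8.04% in trachea, but the paired genes were ones the study had called different.

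Genes of mucosal surfaces made up the largest of the groups, with 8 members, but their list also had the most paired names (28). Tspan8 is a tetraspanin of digestive and urogenital epithelia, Clca4 and Clca4l belong to a family of chloride channel regulators, and Galnt12, St3gal1 and Mgat4a encode glycosyltransferases that build O- and N-linked sugars. Cgnl1 encodes paracingulin of tight junctions and Rab17 a small GTPase of transport in polarized epithelial cells. In vagina 5 of the 8 fell and none rose (7.53% of all genes and 36.8% of all members fell there), and in thymus 6 rose and none fell (8.49% of all genes and 24.1% of all members rose). In bladder 2 fell (11.0% of all genes) and in trachea 1 did (8.04%). All 8 were higher than recovered whisker cells in bladder and thymus, as were 85.1% and 77% of all members. In trachea 7 of the 8 were higher (82.8% of all members), and in vagina 3 (60.9% of all members).

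Tspan8 was at 1051 and 875 CPM in bladder before and 1046 and 1051 CPM after transplantation, and in trachea at 559 and 568 and then 505 and 599. In vagina it went from 430.1 and 360.3 to 50.6 and 53.1 CPM (-2.87 (SE 0.15, adjusted p = 6.4e-10)) and in thymus from 55.2 and 38.8 to 128 and 121 CPM (1.44 (SE 0.16, adjusted p = 1.5e-06)). Its level in recovered vaginal cells remained above that of recovered whisker cells, at 10.6 and 8.26 CPM. Mgat4a fell in vagina from 39.6 and 45.7 to 9.93 and 10.2 CPM and rose in thymus from 13.2 and 15.3 to 91.98 and 90.9 CPM, which were changes of -2.02 and 2.70.

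For Rab17 the values were 50.8 and 46.9 CPM and then 6.47 and 7.11 CPM in vagina, a fall of -2.78 (SE 0.12, adjusted p = 6.2e-11) that brought it near recovered whisker cells (5.77 and 6.25 CPM), and 16.5 and 14.1 CPM and then 37.4 and 39.4 CPM in thymus. Cgnl1 rose in thymus from 167 and 187 to 372 and 357 CPM (1.06, or 0.99 without replicate 1 before transplantation) and fell in vagina from 141 and 166 to 58.2 and 59.4 CPM. St3gal1 rose in thymus (1.12, or 0.98 without that sample) and changed by -0.94 (SE 0.10, adjusted p = 1.2e-06) in vagina, just short of a 2-fold change, which it reached without replicate 1 before transplantation. Galnt12 was called in no tissue, with its largest change in bladder (-0.87).

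Clca4l had the widest range of all members. In bladder before transplantation it was at 1410.0 and 451 CPM, so that the 2 samples differed from each other by more than 2-fold, and after transplantation at 13.9 and 13.01 CPM, the largest fall of any member (-5.77 (SE 0.41, adjusted p = 6.2e-09), and -4.93 or -6.62 without replicate 1 or 2 before transplantation). Trachea went from 163 and 155 to 33.2 and 38.7 CPM, vagina from 22.9 and 15.4 to 2.81 and 3.15 CPM, and thymus was at 52.95 and 48.1 CPM and then 65.1 and 63.7 CPM. Clca4 fell in bladder from 50.7 and 66.6 to 21.9 and 25.03 CPM and rose in thymus from 2.46 and 3.69 to 10.6 and 10.2 CPM. The Clca genes are near copies of each other, so their split of reads is uncertain. Of the 41 listed genes 28 were paired, of which 6 rose and 8 fell in bladder, 1 rose and 12 fell in trachea, 15 fell in vagina, and 10 rose and 3 fell in thymus. Among all tested genes 8.04% fell in trachea, 7.53% fell in vagina and 8.49% rose in thymus. The paired genes, however, were ones the study had called different.

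Glutathione and detoxifying enzymes were 3 of the members, and all 3 fell in vagina, where 7.53% of all genes and 36.8% of all members fell. Gstt3 encodes a theta-class glutathione transferase, Ggt1 the surface enzyme that begins the breakdown of glutathione, and Pon3 a lactonase. Gstt3 was at 242 and 254 CPM in vagina before and 65.9 and 67.6 CPM after transplantation (-1.84 (SE 0.12, adjusted p = 6.9e-09)), and at 78.4 and 62.3 and then 31.99 and 29.7 CPM in thymus (-1.17, or -0.99 without replicate 1 before transplantation). In bladder it was at 114 and 88.3 CPM before and 177 and 161 CPM after (0.87, called without replicate 1 before transplantation at 1.07), and in trachea at 124 and 119 and then 157 and 177. The whisker samples held 6 and 7 reads before and 2 and 3 reads after transplantation, so close to the floor of 3 reads that no fold is given, and all 4 tissues were called higher.

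Pon3 went from 13.7 and 14.4 to 1.73 and 1.61 CPM in vagina (-3.01 (SE 0.27, adjusted p = 2.1e-07)) and from 57.03 and 45.6 to 107 and 99.8 CPM in thymus (1.02 (SE 0.11, adjusted p = 8.1e-07), or 0.84 and 0.95 without replicate 2 before and replicate 1 after), with 3 and 1 reads in the whisker samples before and 1 and 1 after. Ggt1 fell in vagina from 49.7 and 64.96 to 11.97 and 12.4 CPM and rose in thymus from 55.3 and 44.02 to 111 and 102 CPM (1.12, or 0.93 without replicate 2 before transplantation), so that Ggt1 and Pon3 moved in opposite directions in these 2 tissues while Gstt3 fell in both. Of 38 listed genes 11 were paired, of which 2 rose and 3 fell in bladder, 1 rose and 3 fell in trachea, 9 fell in vagina, and 7 rose and 2 fell in thymus. Among all tested genes 7.53% fell in vagina and 8.49% rose in thymus. The paired genes, however, were ones the study had called different.

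Has3 encodes a hyaluronan synthase, Hpse heparanase, which cuts heparan sulphate chains, and Hs3st1 a sulphotransferase that modifies them. Has3 was at 1.05 and 0.738 CPM in whisker cells before and 3.04 and 2.57 CPM after transplantation, and no sample of the 4 tissues was below 14.5 CPM. It rose in bladder from 37.2 and 42.8 to 75.01 and 78.96 CPM (1.07 (SE 0.08, adjusted p = 1.9e-08), or 0.98 without replicate 1 before transplantation), and in trachea from 19.4 and 21.7 to 39.9 and 38.1 CPM the change of 0.97 was just short of 2-fold and passed it without replicate 2 before (1.05) or after (1.005). Hs3st1 rose in thymus from 53.7 and 45.9 to 129 and 122 CPM (1.35) and in whisker cells was at 2.99 and 2.91 and then 14.7 and 12.9 CPM. Hpse was called in no tissue and was higher than recovered whisker cells in all 4, by 2.09 in vagina to 3.49 in bladder. Of 22 listed genes 9 were paired, of which 2 rose and 2 fell in bladder, 2 fell in trachea, 2 rose in vagina, and 2 rose and 2 fell in thymus. Of 38 listed epithelial transcription factors and cofactors 14 were paired, of which 4 rose and 1 fell in bladder, 2 rose and 1 fell in trachea, 1 rose and 4 fell in vagina, and 4 rose and 2 fell in thymus.

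The initiation of DNA replication was represented by Orc1 and Cdc6, which load the replicative helicase, and by Ccnd2, cyclin D2 of the G1 phase. Cdc6 fell in bladder from 10.9 and 22.2 to 7.40 and 6.13 CPM, in trachea from 12.3 and 11.8 to 5.74 and 5.45 CPM and in thymus from 23.3 and 25.1 to 11.9 and 11.5 CPM, with changes of -1.04 to -1.07. The fall in bladder was -0.60 without replicate 2 before and -0.94 without replicate 2 after transplantation. It was at 1.74 and 1.57 CPM in whisker cells before and 5.59 and 5.06 CPM after transplantation. Orc1 fell in trachea (-1.37 (SE 0.26, adjusted p = 4.8e-04)), and also in bladder and thymus when replicate 1 before transplantation was left out (-1.50 and -1.11), and Ccnd2 fell in thymus from 200.7 and 286 to 92.1 and 91.3 CPM (-1.38 (SE 0.14, adjusted p = 7.9e-07)). Against recovered whisker cells none of the 3 was called in bladder. Ccnd2 was higher in trachea (2.25) and vagina (1.79), Orc1 in vagina (1.34) and thymus (1.10), and Cdc6 in thymus (1.03). Of 24 listed genes 10 were paired, of which 1 fell in bladder, 3 in trachea, none in vagina and 4 in thymus, and none rose. Ebpl, which is related to the sterol isomerase Ebp, was the 1 member of the lipid list and fell in bladder from 31.2 and 26.3 to 11.1 and 13.4 CPM (-1.11 (SE 0.14, adjusted p = 3.1e-06), or -0.96 and -0.99 without replicate 1 before or after). Of 22 listed lipid genes 11 were paired, of which 1 rose and 6 fell in bladder, 3 fell in trachea, 1 rose and 2 fell in vagina, and 1 rose and 3 fell in thymus.

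Outside the lists, Akap12, a scaffold protein for protein kinases A and C, was the 1 member that fell in all 4 tissues. It went from 1589 and 1443 to 513 and 473 CPM in bladder (-1.50), from 1304 and 1508 to 394 and 395 CPM in trachea (-1.78) and from 1415 and 1689 to 290.4 and 275 CPM in thymus (-2.44). In vagina it went from 441 and 548 to 10.6 and 11.8 CPM (-5.39 (SE 0.14, adjusted p = 9.2e-14)), the largest fall there. Whisker cells had 1.90 and 2.17 CPM before and 0.925 and 1.07 CPM after, so that even recovered vaginal cells were higher than recovered whisker cells (3.47 (SE 0.35)). The fibroblast markers fell with Akap12 in bladder and trachea. In vagina, where Cd68 and Adipoq fell, they were low both before (28.2 and 33.5 CPM in sum) and after transplantation (23.0 and 28.9 CPM). In thymus they were lower before (22.3 and 23.9 CPM) than after (43.1 and 47.1 CPM). Whether any of these markers had a part in the fall of Akap12 was not tested.

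Gne, which makes the precursor of sialic acid, fell in bladder from 149 and 152 to 40.96 and 38.4 CPM, in trachea from 111 and 100 to 19.1 and 18.02 CPM and in vagina from 20.2 and 23.01 to 6.03 and 6.34 CPM (-1.81, -2.46 and -1.74). Its values before transplantation were high in bladder and trachea, the 2 groups with high fibroblast markers. Its fall in vagina came with little change in these markers (given above) and with falls of Cd68 and Adipoq. The part of these markers in the changes of Gne was not tested. Reep6, a membrane-shaping protein of the endoplasmic reticulum, had the largest fall in trachea, from 21.1 and 23.6 to 4.05 and 2.56 CPM (-2.78 (SE 0.19, adjusted p = 1.0e-08)), and also fell in bladder (-1.04, or -0.97 without replicate 1 before transplantation). Rgs2, a regulator of G-protein signalling, fell in thymus from 132 and 109.6 to 20.2 and 20.96 CPM (-2.53 (SE 0.29, adjusted p = 2.6e-06)), and Cdkl1, a cyclin-dependent kinase-like protein, fell there from 8.12 and 9.97 to 1.93 and 1.19 CPM (-2.58 (SE 0.26, adjusted p = 6.8e-07)).

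Few members rose outside thymus. Ntng2, a netrin-like membrane protein, rose in trachea from 26.8 and 25.2 to 61.1 and 60.8 CPM (1.27 (SE 0.11, adjusted p = 1.3e-07)) and changed by 0.82 in vagina, where no member was called higher. Clec2d2, a C-type lectin of a multigene family, rose in trachea from 14.96 and 15.8 to 28.7 and 32.6 CPM (1.04, or 0.99 and 0.95 without replicate 1 before or replicate 2 after) and fell in bladder from 19.3 and 8.37 to 4.57 and 5.61 CPM (-1.23, or -0.58 without replicate 1 before transplantation). Tp53i11, a membrane protein induced by p53, rose in thymus from 29.3 and 28.4 to 57.7 and 59.4 CPM (1.03 (SE 0.08, adjusted p = 2.3e-08), and 0.99 without replicate 2 before or 0.99 without replicate 2 after). No sample of the 4 tissues was below 28.4 CPM, and none of the 4 whisker samples above 2.54 CPM. The largest rise of any member was that of a gene known only by its locus name, RGD1559575, in thymus from 2.10 and 2.24 to 36.98 and 37.5 CPM (4.10 (SE 0.17, adjusted p = 2.2e-11)), which is given here after its value was seen.

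At the even end, Itm2c, a membrane protein that binds amyloid precursor protein, lay between 199.7 and 205 CPM in recovered thymic cells and 355 and 284 CPM in bladder before transplantation, with whisker cells at 90.4 and 97.4 CPM before and 71.5 and 66.3 CPM after. It was called in no tissue after transplantation, and was higher than recovered whisker cells in all 4 tissues by 1.46 to 2.09. Prkar2b, a regulatory subunit of protein kinase A, lay between 29.8 and 55.3 CPM over the 16 samples of the 4 tissues, and Fhad1 between 6.13 and 12.7 CPM. P2rx5, an ATP-gated channel, was at 1.70 and 1.52 CPM in whisker cells before and 6.12 and 5.54 CPM after transplantation, overlapping with recovered thymic cells (7.09 and 5.90 CPM).

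Of the 13 members that fell in vagina and rose in thymus, those with a gene symbol were Cgnl1, Ggt1, Ifi47, Mgat4a, Pls1, Pon3, Rab17, Slfn5 and Tspan8. No member rose in vagina, so the reverse, a rise in vagina and a fall in thymus, could not be found. Of all 87 members 36.8% fell in vagina and 24.1% rose in thymus. The share of all genes tested with both calls was not computed. Vagina and thymus samples also differ in donor age, label and freezing, so the contrast cannot be assigned to tissue alone. Pls1, the actin-bundling plastin of brush borders, is outside the rule for named genes and was at 68.5 and 73.4 CPM and then 27.5 and 27.5 CPM in vagina, and at 11.6 and 11.03 CPM and then 38.8 and 35.6 CPM in thymus. Among the genes named here that are on a list, the difference between the changes in the 2 tissues ran from 2.38 on the log2 scale in Cgnl1 to 5.38 in Ifi47, given as a description since they were picked for it.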

How the data were processed

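RNA of EGFP-sorted cultured cells was sequenced as stranded mRNA libraries, 2 per group. The authors trimmed reads with Cutadapt 1.8, aligned them with STAR 2.5.2b to Rnor_6.0 and counted uniquely aligned reads per Ensembl gene with HTSeq 0.6.1, and they deposited raw counts for each sample. Rows that name no gene held 41.6% to 46.4% of each file and were left out. Floors cover counting error only, whereas the standard errors come from the fit and include the spread between samples.

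The members and gene lists were chosen with earlier results of these data known. CPM was computed from row totals. Names were taken from 2 supplementary tables of the study, in which 2311 identifiers are paired with symbols, and listed genes without such a pairing are not analysed here. Genes that reached 1 CPM in any sample were scaled by TMM in edgeR 4.0.16 and tested with limma 3.58.1 (voom, R 4.3.3) in 1 model of 10 groups with 10 residual degrees of freedom, with Benjamini-Hochberg adjustment over all 13302 genes, as the study's methods name this test. Calls needed a 2-fold change with an adjusted p value under 0.05, except for the interaction test, which needed the p value alone. Fold changes are TMM-scaled log2 values with their standard errors (SE).

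Genes named are members on a list and, among members with a gene symbol, the 5 with the largest smallest margin, up to 3 with the largest called rise and fall per tissue, the 5 with the largest rise of level in whisker cells, the 5 widest and 5 narrowest ranges, and 3 on either side of the threshold, with at least 5 CPM in every sample of 1 group for changes and ranges. Alternatives were the Wald test and size factors of DESeq2 1.42.0, quasi-likelihood in edgeR, other filters, a replicate block, log2 fold changes of 2 or more, fits on 4 samples, other rules of membership, and leaving out each sample. The fit was checked on simulated counts. Results for 1 member named by this rule are not reported here.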

Additional observations from a re-analysis of the deposited data

Results flagged for a closer look

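Among the named members 15 rose in at least 1 tissue and fell in at least 1 other, and all 15 passed the interaction test of limma on the change after transplantation among the 4 tissues, which restates the choice of these genes and is no further evidence. The value given is the difference between the highest and the lowest change on the log2 scale. Higher in thymus and lower in vagina were Ifi47 (5.38), Slfn5 (5.15, also lower in bladder and trachea), Mgat4a (4.71), Tspan8 (4.30), Rab17 (4.12), Pon3 (4.03), Ggt1 (3.27) and Cgnl1 (2.38). Thymus was higher and bladder lower for Il18rap (4.06), Ptgs2 (3.72, also lower in trachea) and Clca4 (2.98). Ereg (4.26) was higher in bladder and lower in thymus, Ptges (3.18) higher in bladder and lower in vagina and thymus, Sp140 (2.67) higher in bladder and lower in vagina, and Clec2d2 (2.28) higher in trachea and lower in bladder. Since the interaction test passed for 74.1% of all genes tested, such a difference is common in these data. With 2 samples a group, no test for single samples that stand apart was run.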

How the results depend on the processing

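With edgeR, DESeq2, DESeq2 size factors, either other filter and fits on 4 samples, all counts of called members remained within 1.5 times of those given, and no call of a named member changed sign under any alternative. With a log2 fold change of 2 the members that rose were 3 in bladder, 0 in trachea and 6 in thymus, those that fell 2, 5 and 4, and 13 fell in vagina, while 44, 32 and 44 were higher than recovered whisker cells in bladder, vagina and thymus. With a margin of 1.5 or 2 there were 29 or 14 members, and with the higher of the 2 whisker groups as reference 43. A pseudocount of 0.5 CPM gave 120, with all 87 among them, and recovered whisker cells as reference gave 78, of which 43 were among the 87. When every sample had to meet the margin there were 63. With TMM-scaled CPM there were 89, of which 83 were among the 87. Leaving out each sample in turn gave 83 to 93 members. The calls then ranged from 6 to 8 rises and 14 to 18 falls in bladder, 2 to 4 and 13 to 14 in trachea, 0 to 1 and 29 to 33 in vagina, and 19 to 21 and 12 to 15 in thymus. Against recovered whisker cells they ranged from 71 to 74 in bladder and in trachea, 49 to 55 in vagina and 63 to 67 in thymus. The tissue tests gave 57 to 61 members before and 57 to 61 after transplantation, and the interaction test 78 to 84. A group left with 1 sample was assumed to vary like the others.

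The replicate numbers did not pair the samples: deviations of same-numbered samples correlated at -0.12 to 0.24 over 45 pairs of groups (median 0.02). With the replicate block the counts were 6 rises and 17 falls in bladder, 3 and 13 in trachea, 0 and 32 in vagina, 21 and 12 in thymus, 74, 72, 53 and 67 against recovered whisker cells, and 58, 59 and 80 by the tissue and interaction tests. The 2 samples a group limit all p values to this spread. Low counts in whisker cells limit the folds against whisker cells of Gstt3, Pon3, Cdkl1 and Reep6, among others. Slfn5, Clca4 and Clca4l had only 4 to 14 reads in each whisker sample. A test of recovered cells against whisker cells before transplantation was not run, since that difference chose the members.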
